A study of Mus musculus with 66 samples.

Results

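Amino acid carriers of the SLC1A, SLC6A, SLC7A, SLC36A, SLC38A and SLC43A families were followed through mouse oocyte development in RNA-seq libraries from ovaries and from stem cell derived cultures. Members were the genes named with 1 of these 6 family prefixes and a number, with a mean of at least 1 RPM (reads scaled to a library total of 1000000) in at least 1 of 24 groups of libraries. The deposited table held 57 such symbols, and 46 met the threshold, among 24062 genes in all. They comprised 13 of 17 Slc6a genes, 12 of 15 Slc7a genes, 9 of 11 Slc38a genes, 6 of 7 Slc1a genes, 3 of 4 Slc36a genes and all 3 Slc43a genes. The members just inside the threshold were Slc7a15, with a highest group mean of 1.25 RPM, and Slc36a2, with 1.28 RPM. Just outside it were Slc6a19, at 0.709 RPM, and Slc6a13, at 0.503 RPM.

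These proteins move amino acids across the plasma membrane or out of the lysosome. SLC7 light chains such as Slc7a5 exchange neutral, cationic or acidic amino acids and work as pairs with the heavy chain Slc3a2, while the SLC38 and SLC36 families couple uptake to sodium or protons, and Slc36a1 and Slc38a9 sit on lysosomes, where they signal amino acid supply to the growth kinase mTORC1. Oocytes are known to accumulate glycine through Slc6a9 to control their volume, and growing oocytes also receive amino acids from granulosa cells through gap junctions. The SLC6 family also holds carriers of serotonin (Slc6a4), creatine (Slc6a8), taurine (Slc6a6) and other amines.

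Germ cells and oocytes from ovaries carried the stella-ECFP reporter in mice of C57BL/6 and B6D2F1 background, and came from embryonic days E14.5, E16.5 and E18.5 and postnatal days P1, P3, P4 and P6, with P4 and P6 oocytes divided into small and large ones. Cultured cells derived from embryonic stem cells of C57BL/6 and 129/SvJ background with a Blimp1-mVenus reporter. They had been turned into primordial germ cell-like cells, aggregated with frozen-thawed somatic cells of E12.5 gonads into reconstituted ovaries, and collected on culture days D5, D7, D9, D10 and D11, and later D13, D15, D17 and D20. Each of these 18 groups had 3 libraries. A last set of D21 oocytes, with 2 libraries a group, came from stem cells carrying a Foxo3dNES transgene (Tg) and from wild-type (WT) stem cells, each under hypoxia (5% oxygen), normoxia (air), or with no oxygen condition in the labels. In the labels, cells of E18.5 or D11 and earlier are germ cells, later ones are oocytes, and nothing gives the promoter of the transgene or the number of stem cell clones. All libraries used poly(A) RNA and a directional kit. Strain and culture cannot be told apart in any comparison of cultured with ovarian cells.

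Library totals, in M (1000000) reads, were 13.9 to 23.2 in the ovarian set, 14.7 to 22.8 in the culture course and 4.84 to 21.3 at D21, where the libraries without an oxygen label had 4.84 to 8.72. In RPM, 3 reads were worth between 0.129 and 0.619, depending on the library. All 8 markers of germ cells and oocytes were at 1 RPM or more in every group but E14.5, with 7, and D5, with 6. Summed markers of granulosa cells, from 16 genes, were 18.1 to 168 RPM in ovarian libraries and 407 to 871 RPM at D9 to D11 of culture, against 24.9 to 87.0 RPM from D13 to D20. Summed stroma and theca markers, from 12 genes, were 198 to 1888 RPM at D9 to D11 and 1.80 to 29.1 RPM from D13 to D20. At D21 one of the WT normoxia libraries, replicate 2, stood apart, with blood and immune markers summing to 90.7 RPM against 1.03 to 5.55 RPM in the other libraries of the set. In these bulk samples fewer cells of a type and less RNA per cell cannot be told apart. Foxo3, the gene of the transgene, had 364 and 367 RPM in Tg hypoxia oocytes and 123 and 128 RPM in WT hypoxia oocytes, 322 and 324 RPM in Tg normoxia and 44.8 and 88.5 RPM in WT normoxia oocytes, and 267 and 318 RPM in unlabelled Tg and 56.98 and 89.1 RPM in unlabelled WT oocytes. Every Tg library was above every WT library. The series text calls the libraries of a group biological replicates.

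The summed level of the members was 801 ± 72 RPM at E14.5, 719 ± 14 RPM at E16.5, 900.5 ± 62 RPM at E18.5, 1184 ± 63 RPM at P1 and 1407 ± 92 RPM at P3 (SD, n = 3 each). It reached 1602 ± 33 RPM in P6 small and 1772 ± 33 RPM in P6 large oocytes. In culture the sum was 862 ± 171 RPM at D5, 1195.5 ± 101 RPM at D11 and 1700.3 ± 30.3 RPM at D20. D5 replicate 2 stood apart, with a sum of 666 RPM against 984 RPM in replicate 1 and 935 RPM in replicate 3. Over all genes its Pearson r with replicates 1 and 3 was 0.976 and 0.979, against 0.996 between replicates 1 and 3. The number of members at 1 RPM or more was 24 in P6 small and 27 in P6 large oocytes, after 28 at E14.5, and in culture it was 32 at D5, 39 at D10 and 27 at D20. Summed granulosa markers were 623 to 860 RPM at D10 and 80.4 to 87.0 RPM at D20. Stroma and theca markers summed to 763 to 1761 RPM at D10 and 2.56 to 4.41 RPM at D20. The part of such cells in the number of members was not tested. Slc6a genes made up 18.8% of the summed level in P6 small and 56.9% in P6 large oocytes, and Slc38a genes 34.3% in P6 small and 13.6% in P6 large oocytes.

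Levels of different members were compared per kb of exon. At E14.5 the leading members were Slc7a6, an exchanger of cationic and neutral amino acids, at 34.0 ± 1.7 RPM per kb, and Slc38a10, a little studied SLC38 protein, at 32.0 ± 2.3 RPM per kb, which did not differ beyond their spread. From P1 to P3 and in small oocytes of P4 and P6 the leaders were Slc7a5, the large neutral amino acid exchanger LAT1, and Slc6a9, at 57.9 ± 1.6 and 53.1 ± 2.0 RPM per kb at P3. In large oocytes Slc6a7, the proline carrier known from brain, came first, at 121 ± 1.2 RPM per kb at P6, ahead of Slc6a9 at 96.6 ± 4.8 RPM per kb and Slc7a5 at 27.3 ± 1.1 RPM per kb (SD, n = 3). The order in culture from D13 to D20 began in the same way, with Slc6a7 at 147 ± 3.5 RPM per kb and Slc6a9 at 94.5 ± 9.3 RPM per kb on D15.

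**Figure D1:**
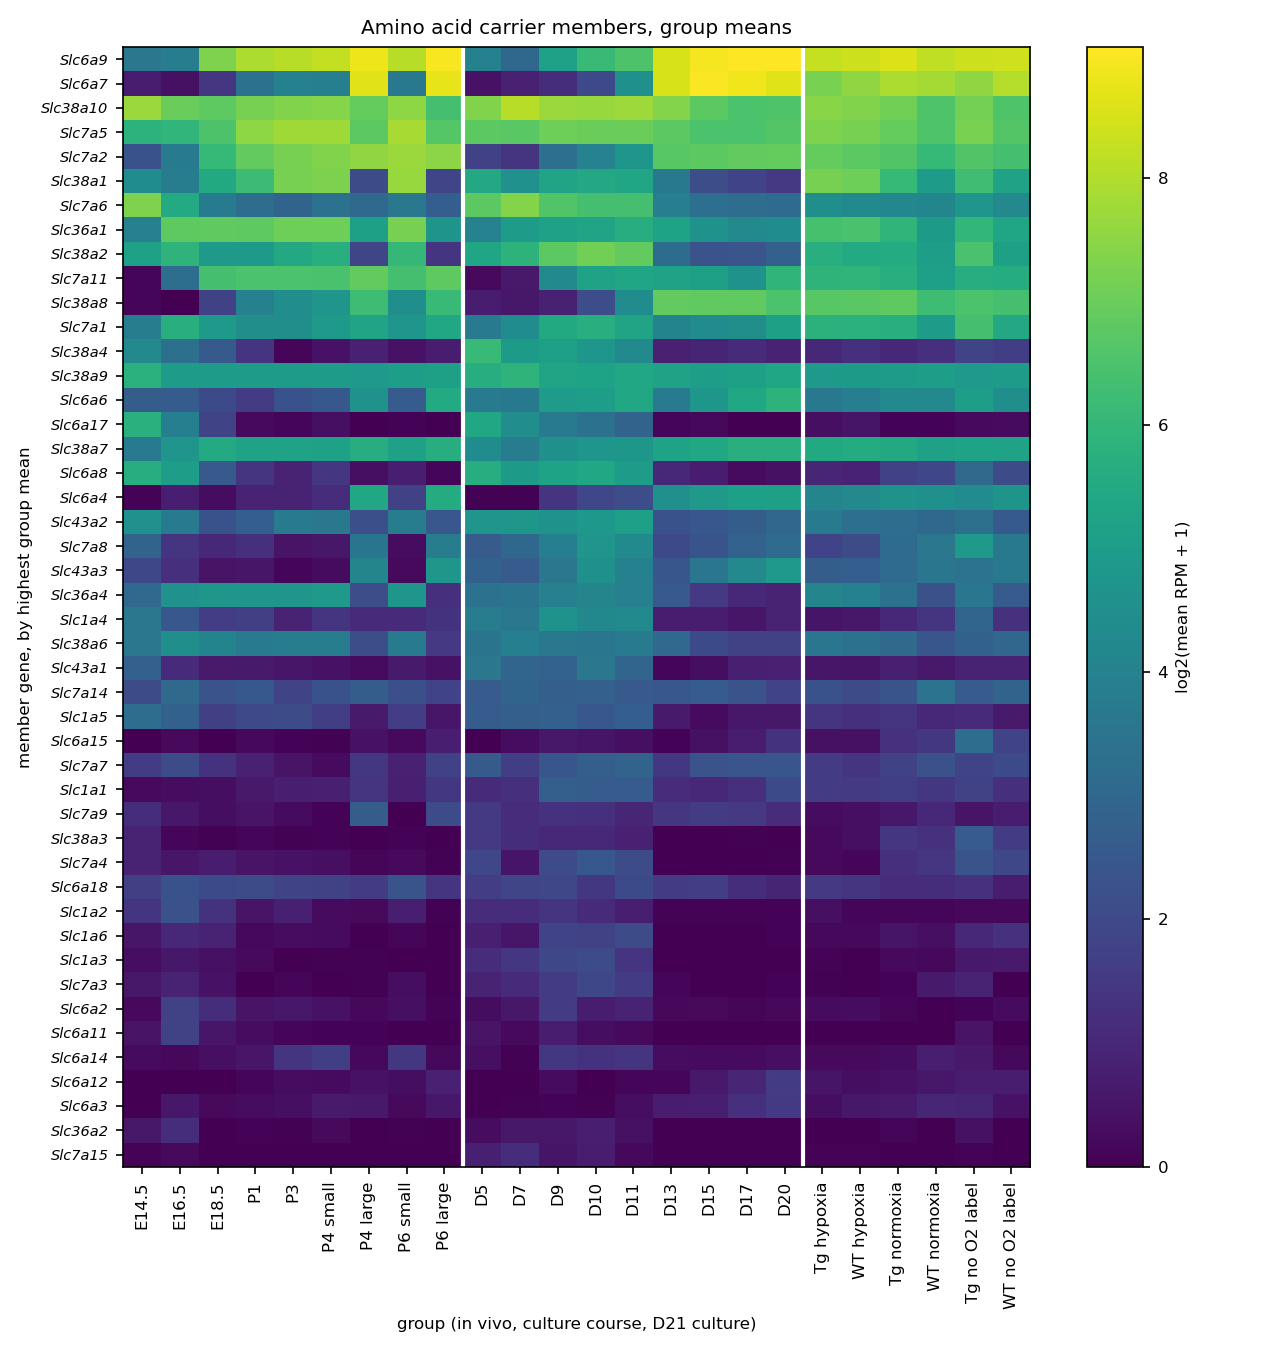
Group means of the 46 members on a log2(RPM + 1) colour scale, with members down the page by their highest group mean and the 24 groups across (9 in vivo, 9 of the culture course and 6 at D21). Slc6a9 and Slc6a7 are brightest in large oocytes and from D13 on, and Slc38a1 and Slc36a1 in small oocytes.

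Of the 17 members that reached a group mean of 50 RPM, 4 are given here by the range of their group means. Slc38a9, the lysosomal arginine sensor of mTORC1, had group means between 28.3 and 58.2 RPM in all 24 groups. Slc7a1, a cationic amino acid carrier, ran between 12.7 RPM at D5 and 82.1 RPM in Tg oocytes without an oxygen label. Slc38a4, an imprinted carrier of neutral and cationic amino acids, was highest at D5 with 67.7 RPM and lowest at P3 with 0.0923 RPM, and Slc6a6 was highest at D20 with 57.5 RPM and lowest at P1 with 2.08 RPM. Exons of Slc6a9, Slc7a2, Slc38a10, Slc38a9, Slc6a6, Slc43a2, Slc7a4, Slc7a7, Slc1a1 and Slc1a2 overlap annotated genes on the opposite strand. Whether counting used strand is not given in the sources used here, so the reads of these members and of their partners may not be told apart.

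The 29 members below 50 RPM differed in where they peaked. Slc6a8 had its highest mean at D5 with 49.1 RPM, Slc6a4 in P6 large oocytes with 46.3 RPM, Slc43a2, a carrier of large neutral amino acids, at D11 with 33.4 RPM, and Slc7a8, an exchanger of neutral amino acids, in Tg oocytes without an oxygen label with 28.4 RPM. Slc43a3, known as a purine carrier, peaked at D20 with 28.1 RPM, Slc36a4, a relative of Slc36a1, in P4 small oocytes with 27.9 RPM, Slc1a4, a carrier of small neutral amino acids, at D9 with 23.2 RPM, Slc38a6 at E16.5 with 21.96 RPM and Slc43a1 at D5 with 11.2 RPM. The remaining 20 never averaged 10 RPM. The highest of them were Slc7a14 with 9.95 RPM, Slc1a5 with 8.46 RPM and Slc6a15 with 8.36 RPM, and Slc7a7, Slc1a1, Slc7a9 and Slc38a3 peaked between 5.099 and 6.37 RPM. Slc7a4, Slc6a18, Slc1a2, Slc1a6, Slc1a3, Slc7a3, Slc6a2, Slc6a11, Slc6a14, Slc6a12, Slc6a3, Slc36a2 and Slc7a15 peaked between 1.25 and 4.63 RPM.

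Fetal germ cells at E18.5 were compared with those at E14.5. Slc7a11, the exchanger that brings in cystine for glutathione, the cationic amino acid carrier Slc7a2, the glycine carrier Slc6a9 and the lysosomal Slc36a1 were higher at E18.5. Slc6a17, which loads neutral amino acids into vesicles, the exchanger Slc7a6 and the creatine carrier Slc6a8 were lower. Of 38 members tested, 13 were higher and 15 lower, beside 40.0% and 30.0% of all genes tested (limma on log2(RPM + 1), Benjamini-Hochberg adjusted p under 0.05 over all genes). The median log2 change was 0.07 for members and 0.14 for all genes.

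Slc7a11 (chr3:49892526-50443614, minus strand, GRCm38, GENCODE M21) had 64.5, 98.01 and 85.2 RPM at E18.5, against 0.0495, 0.0961 and 0.185 RPM at E14.5. Slc7a2 (chr8:40862396-40922308, plus strand) had 81.7, 60.4 and 56.2 RPM at E18.5, against 2.42, 4.08 and 5.19 RPM at E14.5. Slc6a9 (chr4:117834506-117875198, plus strand) had 158, 181 and 137 RPM at E18.5, against 7.22, 12.2 and 13.5 RPM at E14.5. The groups of these 3 genes lay far apart, and Slc7a11 at E14.5 was near the level of 3 reads. On the log2(RPM + 1) scale the changes were 6.21 (SE 0.28) for Slc7a11, 3.80 (SE 0.20) for Slc7a2 and 3.77 (SE 0.14) for Slc6a9, with adjusted p-values of 4.6e-16, 8.5e-15 and 2.2e-17 by limma. Slc36a1 rose by 2.91 (SE 0.11), to 114 ± 8.2 RPM at E18.5 against 14.4 ± 2.5 RPM at E14.5 (SD, n = 3 each), and Slc38a7, a lysosomal glutamine carrier, rose by 1.84 (SE 0.12).

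Slc7a6 had 10.8, 10.2 and 14.9 RPM at E18.5, against 157, 162 and 147 RPM at E14.5. Slc6a17 had 2.501, 2.56 and 2.87 RPM at E18.5, against 41.1, 51.98 and 67.2 RPM at E14.5. Slc6a8 had 4.61, 4.42 and 5.31 RPM at E18.5, against 44.4, 44.1 and 57.7 RPM at E14.5. Every E18.5 library was below every E14.5 library in these genes, with log2 changes of -3.61 (SE 0.20) for Slc7a6, -3.88 (SE 0.17) for Slc6a17 and -3.10 (SE 0.18) for Slc6a8. Slc43a2 changed by -2.30 (SE 0.22) and Slc1a4 by -1.98 (SE 0.28). The heavy chain Slc3a2, partner of several SLC7 members, had 34.01 RPM at E18.5 and 60.5 RPM at E14.5 (log2 change -0.81, SE 0.10). Summed granulosa markers were 66.02 to 114 RPM at E18.5 and 26.4 to 39.97 RPM at E14.5, with 12 and 10 of 16 at 1 RPM or more and Fshr at 0 at both stages. Of the 15 tested, 8 were higher and 1 lower at E18.5. Stroma and theca markers summed to 34.8 to 74.9 RPM at E18.5 and 9.94 to 13.3 RPM at E14.5, with 5 of 8 tested higher and 0 lower. Their part in the result was not tested.

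Promoter sequence from RefSeq (GRCm38.p6, 250 bases before to 50 after the annotated start) was matched by symbol for 31 of the 46 members and scanned on both strands for 4 motifs: the FOXO motif GTAAACA, the hypoxia response core ACGTG, the E-box CACGTG, which overlaps that core, and the amino acid response motif TGATGNAA. The Slc7a11 window (chr3:50443564-50443863, minus strand) is shown because it held the one FOXO match among the members, beginning 232 bases before the start, and matches to the amino acid response motif beginning 66 and 47 bases before it. Matches are in capitals, and no window letters say whether a factor binds. The FOXO motif was present in 3.65% and the amino acid response motif in 3.97% of all 32851 windows, and the amino acid response motif was also found in Slc1a4 and Slc7a7.
Slc7a11: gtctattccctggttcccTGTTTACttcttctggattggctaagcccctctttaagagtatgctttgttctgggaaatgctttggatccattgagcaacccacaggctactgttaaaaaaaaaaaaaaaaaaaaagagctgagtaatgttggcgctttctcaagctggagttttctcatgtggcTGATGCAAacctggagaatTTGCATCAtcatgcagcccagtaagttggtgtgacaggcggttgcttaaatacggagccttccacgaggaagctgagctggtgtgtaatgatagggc

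At P3 against E18.5 the glutamine carrier Slc38a8, the proline carrier Slc6a7, Slc38a1 (SNAT1, a sodium-coupled carrier of small neutral amino acids), Slc43a2 and Slc7a5 were higher. Of 38 members 11 were higher and 10 lower, beside 26.0% and 32.3% of all genes, with a median log2 change of -0.07 for members and -0.07 for all genes. Slc38a8 had 17.9, 26.7 and 18.1 RPM at P3, against 3.49, 1.95 and 2.03 RPM at E18.5 (log2 change 2.65, SE 0.30). Slc6a7 had 11.5, 14.1 and 18.8 RPM at P3, against 1.596, 1.16 and 2.27 RPM at E18.5 (2.56, SE 0.24). Slc38a1 had 126, 178 and 134 RPM at P3, against 39.9, 53.4 and 39.9 RPM at E18.5 (1.69, SE 0.26). All P3 libraries were above all E18.5 libraries for these 3 genes. Slc43a2 rose by 1.41 (SE 0.22), and Slc7a5 by 1.24 (SE 0.10), to 215 ± 6.0 RPM at P3 against 90.4 ± 8.5 RPM at E18.5 (SD, n = 3 each). Slc7a6 was lower, at 5.66, 7.53 and 6.51 RPM at P3 against 10.8, 10.2 and 14.9 RPM at E18.5 (-0.77, SE 0.20, adjusted p = 0.0020 by limma). Slc38a7 was called lower by limma (-0.31, SE 0.12, adjusted p = 0.035), a call that was lost after rescaling, with edgeR and DESeq2, and without E18.5 replicate 2, P3 replicate 1 or P3 replicate 2. Summed granulosa markers were 19.2 to 49.1 RPM at P3 and 66.02 to 114 RPM at E18.5, and their part was not tested.

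Small oocytes of P6 and P4 were compared with large oocytes of the same age. RPM are shares of a library and not amounts per oocyte. Small oocytes had higher RPM of Slc38a1, its relative Slc38a2 (SNAT2), Slc36a4, Slc36a1 and Slc38a6. Large oocytes had higher RPM of Slc6a7, the serotonin carrier Slc6a4, Slc43a3, Slc7a8 and the taurine carrier Slc6a6. At P6, 14 of 38 members were higher and 12 lower in small oocytes, beside 51.3% and 22.1% of all genes. At P4, 11 were higher and 12 lower, beside 48.7% and 20.5%. The 11 members higher at P4 were among the 14 higher at P6, and the same 12 members were lower at both ages. The share of all genes with the same call at both ages was not counted. This overlap is therefore not read as a result about the members. The median log2 difference of members was 0.09 at P6 and 0.14 at P4, against 0.41 and 0.34 for all genes. When libraries were rescaled with size factors (median of ratios), 12 members were higher and 14 lower at P6, and 10 higher and 17 lower at P4. The same rescaling gave 5276 higher and 5576 lower of all genes at P6, where 7904 and 3396 were called without it, and 4783 and 5112 at P4, where it was 7507 and 3156 without it.

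Slc38a1 (chr15:96571418-96642913, minus strand) had 220.3, 185 and 200.1 RPM in P6 small oocytes, against 1.205, 4.89 and 2.06 RPM in P6 large oocytes. In P4 small oocytes it had 154, 126 and 185 RPM, against 3.17, 2.701 and 3.92 RPM in P4 large oocytes. Every small library was far above every large one, and the log2 difference was 5.89 (SE 0.26, adjusted p = 2.4e-16) at P6 and 5.19 (SE 0.26, adjusted p = 6.5e-15) at P4 by limma. The neighbouring Slc38a2 (chr15:96687392-96699730, minus strand) had 63.1, 68.2 and 60.9 RPM in P6 small oocytes, against 3.300, 0.978 and 0.609 RPM in P6 large oocytes (4.76, SE 0.25). At P4 it had 51.7, 49.9 and 50.03 RPM in P4 small oocytes, against 3.395, 2.04 and 2.82 RPM in P4 large oocytes (3.80, SE 0.25). Slc38a6 differed in the same direction, by 2.26 (SE 0.25) at P6 and 1.68 (SE 0.25) at P4.

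Slc36a4 had 28.03, 26.2 and 23.1 RPM in P6 small oocytes, against 1.36, 1.18 and 1.405 RPM in P6 large oocytes (3.53, SE 0.18). At P4 it had 26.3, 28.9 and 28.5 RPM in small oocytes, against 3.395, 2.88 and 4.03 RPM in large oocytes (2.71, SE 0.18). The lysosomal Slc36a1 (chr11:55204350-55236330, plus strand) averaged 145 ± 7.6 RPM in P6 small and 25.03 ± 2.2 RPM in P6 large oocytes (SD, n = 3 each; log2 difference 2.49, SE 0.11). At P4 it averaged 132 ± 4.8 RPM in small ones and 34.2 ± 6.6 RPM in large ones (1.93, SE 0.11). Slc7a5 averaged 233 ± 16 RPM in P6 small and 101 ± 4.2 RPM in P6 large oocytes and was among the members higher in small ones. Its heavy chain Slc3a2 was lower in small oocytes, with 50.9 RPM in P6 small and 70.3 RPM in P6 large oocytes (log2 difference -0.46, SE 0.10, adjusted p = 1.2e-04 by limma). Slc38a10, Slc43a2, Slc6a8, Slc1a5 and Slc6a14 were higher in small oocytes at both ages, and Slc7a6, Slc6a18 and Slc1a2 passed the threshold at P6.

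Slc6a7 had 10.2, 8.24 and 16.8 RPM in P6 small oocytes, against 411, 418 and 419 RPM in P6 large oocytes. At P4 it had 10.8, 16.96 and 13.9 RPM in small oocytes, against 389, 398 and 402 RPM in large oocytes. Large libraries lay within a narrow band, and the log2 difference was -5.08 (SE 0.24, adjusted p = 7.6e-16) at P6 and -4.76 (SE 0.24, adjusted p = 6.7e-15) at P4 by limma. Slc43a3 had 0.112, 0.131 and 0.239 RPM in P6 small oocytes, against 25.9, 25.6 and 28.1 RPM in P6 large oocytes (-4.57, SE 0.19 at P6 and -3.87, SE 0.19 at P4). Slc6a4 had 2.18, 0.981 and 3.82 RPM in P6 small oocytes, against 48.5, 45.8 and 44.5 RPM in P6 large oocytes (-3.92, SE 0.28 at P6 and -4.27, SE 0.28 at P4). Both were low in every small library and even among the large ones. Slc7a8 differed by -3.45 (SE 0.24) at P6 and -2.94 (SE 0.24) at P4, and Slc6a6 by -2.88 (SE 0.25) at P6 and -2.17 (SE 0.25) at P4.

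Slc6a9 was abundant in both classes, with 280.3, 245 and 295 RPM in P6 small and 498, 520.4 and 472 RPM in P6 large oocytes, and was called lower in small ones. Slc38a8 averaged 21.5 ± 6.2 RPM in P6 small and 67.7 ± 2.8 RPM in P6 large oocytes (SD, n = 3 each) and was also lower in small ones. Slc7a1, Slc38a7, Slc1a1, Slc7a7 and Slc7a9 completed the 12 lower members. Slc38a9 had 30.8, 35.5 and 32.6 RPM in P6 small and 36.7, 31.04 and 36.2 RPM in P6 large oocytes, with overlapping groups and no call. Slc7a2 averaged 204 ± 17 RPM in P6 small and 178 ± 21 RPM in P6 large oocytes, and Slc7a11 81.6 ± 3.8 RPM in P6 small and 113 ± 13 RPM in P6 large oocytes, also without a call. Summed granulosa markers were 18.1 to 29.99 RPM in P6 small and 66.00 to 73.5 RPM in P6 large oocytes, with 6 and 4 of 16 at 1 RPM or more, Fshr at 0 in small and Krt19 at 0 in large oocytes. Of the 15 granulosa markers tested, 6 were higher and 3 lower in small oocytes at P6, and 9 higher and 3 lower at P4. Stroma and theca markers summed to 9.32 to 30.8 RPM in P6 small and 2.42 to 3.46 RPM in P6 large oocytes, and of 8 tested 7 were higher in small oocytes at P6 and 6 at P4, with none lower. Their part in these differences was not tested.

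**Figure D2:**
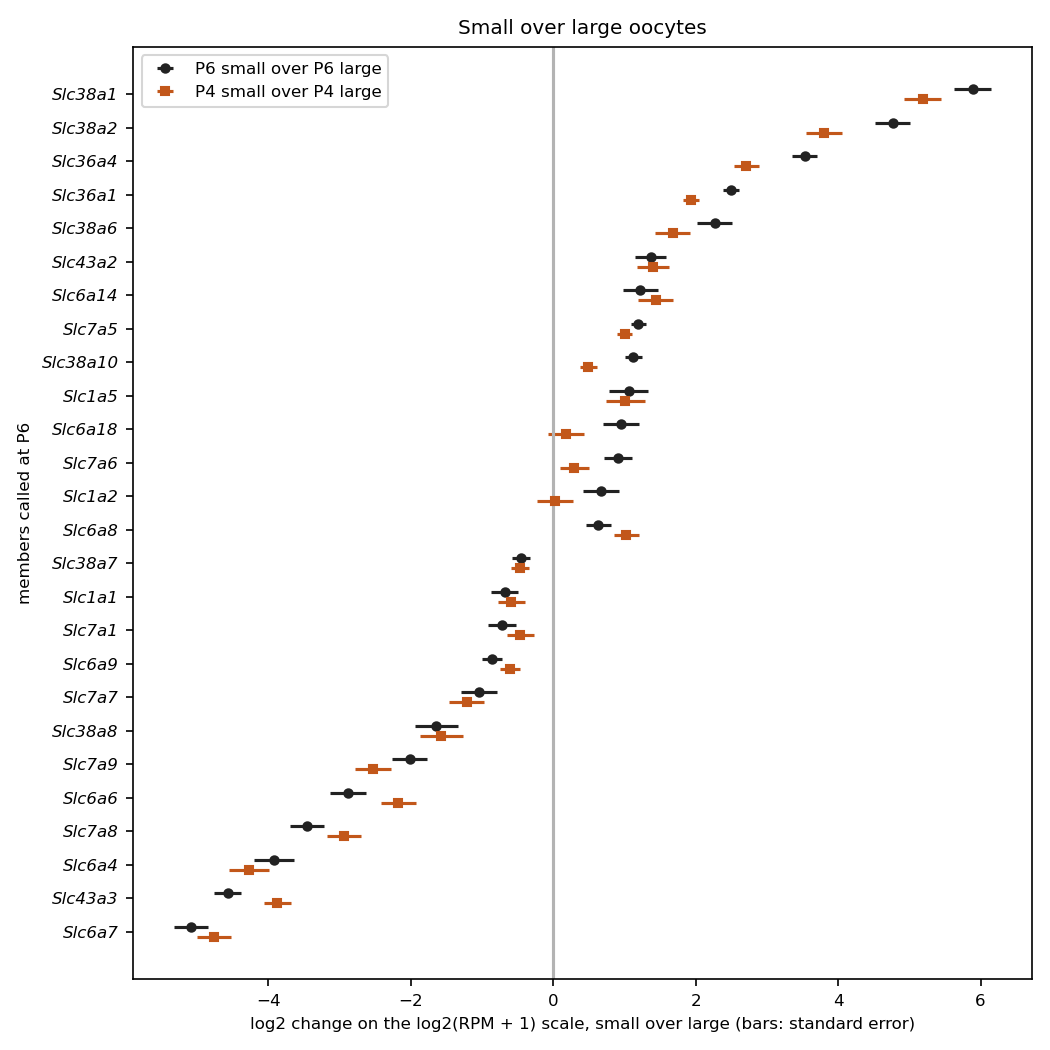
Log2 difference of small over large oocytes on the log2(RPM + 1) scale for the 26 members called at P6, at P6 and at P4, with bars for the standard error. Slc38a1 lies at 5.89 at P6 and 5.19 at P4, and Slc6a7 at -5.08 at P6 and -4.76 at P4.

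Whether the difference between small and large oocytes itself changed from P4 to P6 was tested as an interaction. It was higher at P6 for 3 of 38 members and lower for none, beside 5.88% and 2.64% of all genes. The difference of differences was 0.82 (SE 0.25, adjusted p = 0.040) for Slc36a4, 0.63 (SE 0.17, adjusted p = 0.020) for Slc38a10 and 0.56 (SE 0.16, adjusted p = 0.030) for Slc36a1 by limma. Slc38a10 had 175, 203 and 167 RPM in P6 small and 71.03, 101 and 78.2 RPM in P6 large oocytes, and 203, 148 and 157 RPM in P4 small and 126, 108 and 124 RPM in P4 large oocytes. With edgeR 1 member was called, Slc36a4. The calls of Slc38a10 and Slc36a1 were also lost after rescaling, that of Slc38a10 with DESeq2, and that of Slc36a4 without the filter on low values. The count was 0 without P4 small replicate 2, P4 large replicate 1, P4 large replicate 3 or P6 small replicate 2, and 1 without P4 small replicate 3, P6 large replicate 1 or P6 large replicate 3.

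Promoter windows were available for 9 of the 14 members higher and 9 of the 12 lower in P6 small oocytes. The hypoxia response core was found in 3 of the 9 higher (Slc36a1, Slc38a10 and Slc7a6) and 2 of the 9 lower members (Slc7a7 and Slc38a7), and in 19.6% of all 32851 windows. The E-box was found in 1 of 9 on each side, Slc36a1 and Slc38a7, and in 7.15% of all windows. A member counted when any of its windows matched, while the shares of all windows are per window. Counted per window over all matched members, 13 of 49 windows held the core and 6 of 49 the E-box. Windows of Slc36a1 (chr11:55204090-55204389, plus strand) and Slc36a4 (chr9:15709488-15709787, plus strand), high in small oocytes, and of Slc6a4 (chr11:76998347-76998646, plus strand) and Slc38a8 (chr8:119501649-119501948, minus strand), high in large ones, are shown to set both sides next to each other, with matches in capitals. That of Slc36a1 held E-boxes beginning 31 and 3 bases before the start and a further core match beginning 246 bases before it, and the other 3 windows held none of these letters.
Slc36a1: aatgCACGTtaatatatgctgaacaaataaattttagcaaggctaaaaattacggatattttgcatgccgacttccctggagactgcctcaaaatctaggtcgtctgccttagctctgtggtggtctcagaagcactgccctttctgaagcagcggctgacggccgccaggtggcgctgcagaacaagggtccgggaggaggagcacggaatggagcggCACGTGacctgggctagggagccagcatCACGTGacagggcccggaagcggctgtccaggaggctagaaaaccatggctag
Slc36a4: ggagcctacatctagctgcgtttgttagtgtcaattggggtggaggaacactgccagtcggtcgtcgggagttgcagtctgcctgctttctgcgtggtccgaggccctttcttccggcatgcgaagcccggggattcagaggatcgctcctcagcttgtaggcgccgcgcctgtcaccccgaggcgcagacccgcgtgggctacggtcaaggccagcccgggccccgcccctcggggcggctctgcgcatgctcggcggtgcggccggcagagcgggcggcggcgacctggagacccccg
Slc6a4: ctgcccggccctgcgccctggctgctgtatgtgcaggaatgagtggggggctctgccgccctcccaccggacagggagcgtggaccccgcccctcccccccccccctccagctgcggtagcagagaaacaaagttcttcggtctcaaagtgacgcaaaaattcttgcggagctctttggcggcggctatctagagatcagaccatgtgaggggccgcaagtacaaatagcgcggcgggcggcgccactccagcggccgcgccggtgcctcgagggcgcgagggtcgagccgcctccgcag
Slc38a8: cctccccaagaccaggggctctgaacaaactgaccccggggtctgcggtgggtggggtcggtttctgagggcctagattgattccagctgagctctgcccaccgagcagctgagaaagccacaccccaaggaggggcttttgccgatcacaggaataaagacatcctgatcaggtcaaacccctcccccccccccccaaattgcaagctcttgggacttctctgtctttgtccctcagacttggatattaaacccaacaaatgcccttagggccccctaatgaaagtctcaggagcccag

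**Figure D3:**
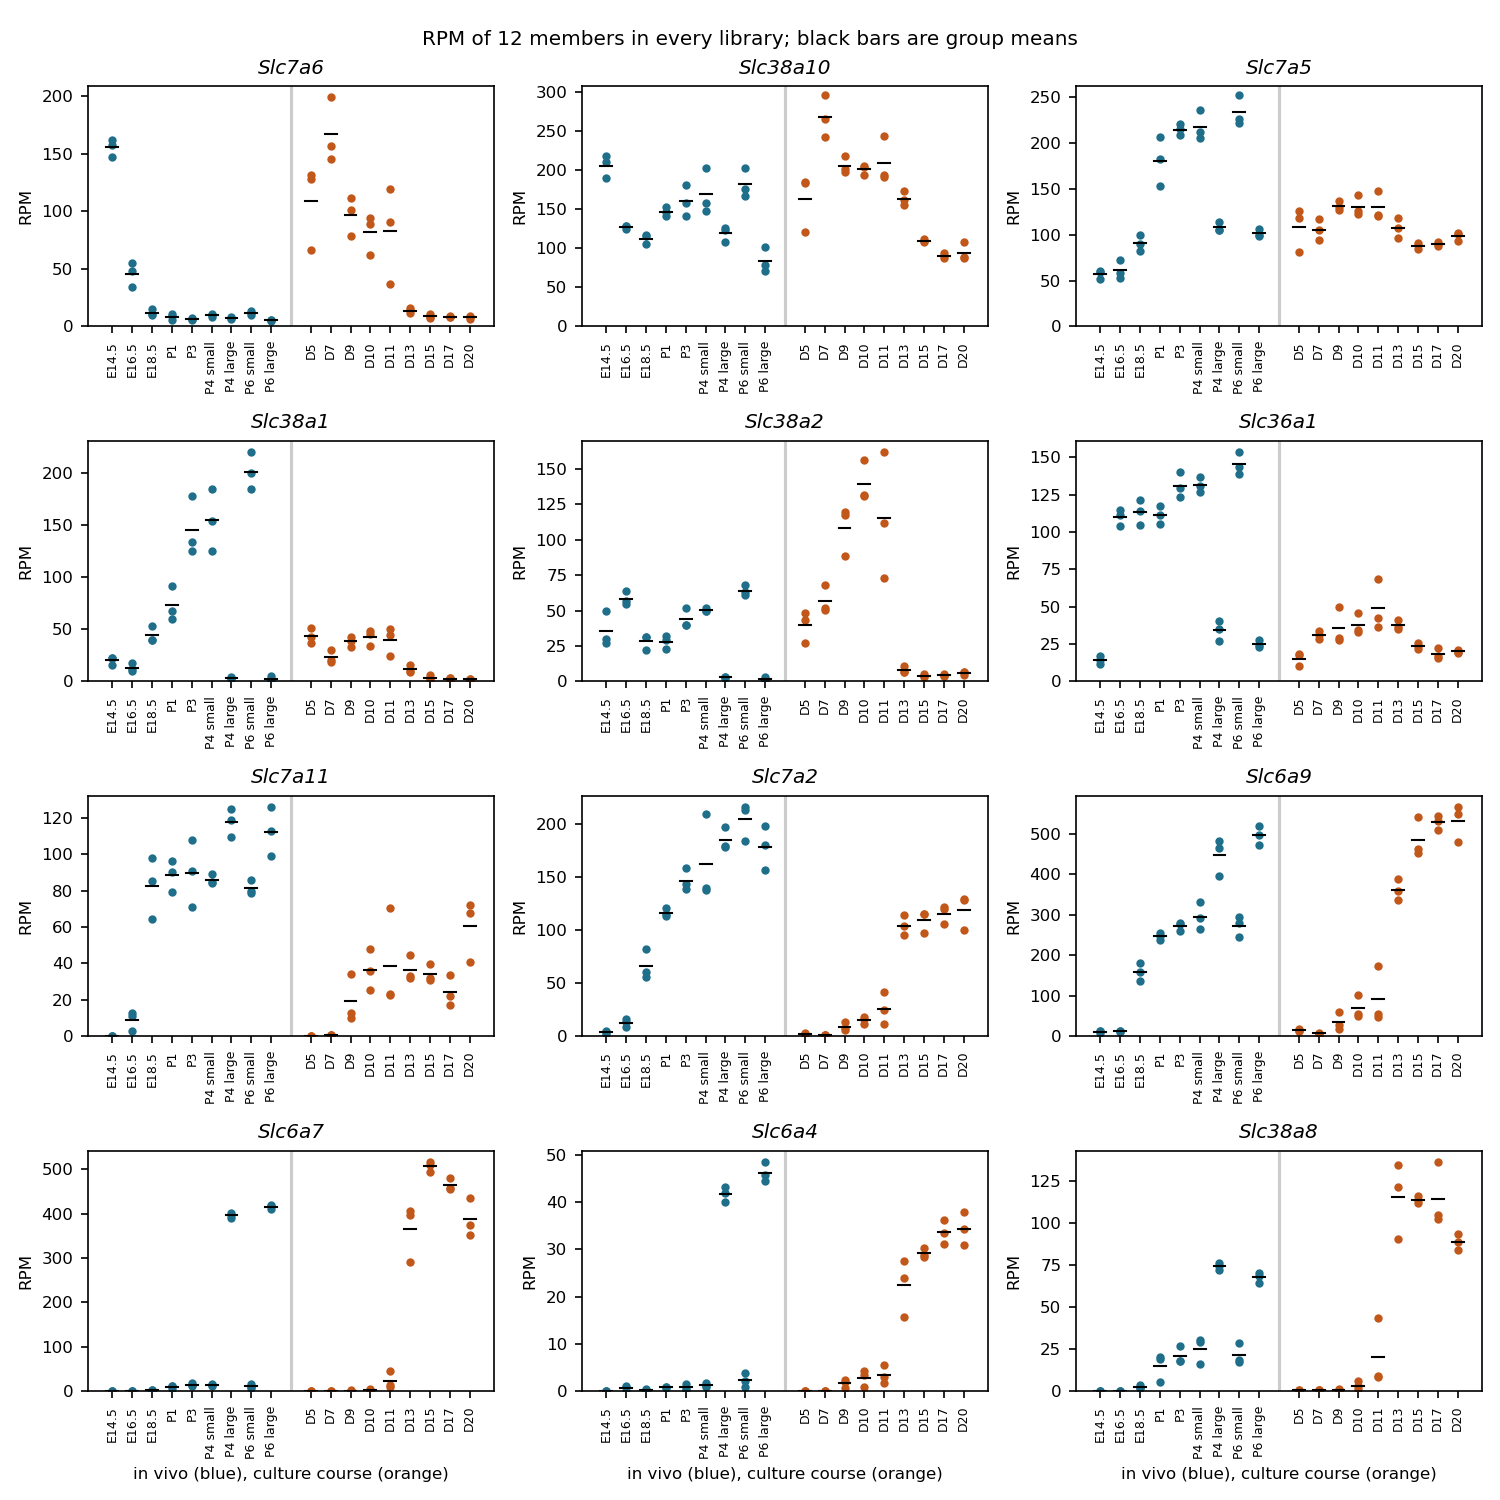
RPM of 12 members in every library by stage, with ovarian libraries in blue, cultured ones in orange and black bars for group means. Slc6a7 and Slc6a9 are high in large oocytes and from D13 on, where Slc38a1 and Slc38a2 are low.

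In culture, D11 was first compared with D5. Slc7a11, Slc6a7, Slc38a8, Slc7a2 and Slc6a9 were higher at D11, and Slc6a17 and Slc38a4 lower. Of 44 members 15 were higher and 3 lower, beside 31.2% and 15% of all genes, with a median log2 change of 0.34 for members and 0.17 for all genes. After rescaling 14 members were higher and 4 lower, while of all genes 4209 were higher and 3271 lower with rescaling and 5019 and 2413 without it. Slc7a11 had 22.9, 23.2 and 70.4 RPM at D11, against 0.246, 0 and 0.306 RPM at D5 (log2 change 4.88, SE 0.38). Slc6a7 had 8.84, 13.3 and 45.8 RPM at D11, against 0.788, 0.175 and 0.153 RPM at D5 (3.80, SE 0.38). Slc38a8 had 8.27, 9.08 and 43.8 RPM at D11, against 0.788, 0.877 and 0.204 RPM at D5 (3.34, SE 0.40). D11 replicate 3 was the highest library of all 3 genes, and the other D11 libraries were also above D5. Slc7a2 rose by 2.82 (SE 0.30) and Slc6a9 by 2.34 (SE 0.35).

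Slc6a17 had 8.94, 8.77 and 1.499 RPM at D11, against 41.9 ± 8.7 RPM at D5 (SD, n = 3; log2 change -2.76, SE 0.33). Slc38a4 had 23.9, 29.4 and 4.91 RPM at D11, against 71.7, 62.7 and 68.7 RPM at D5 (-2.06, SE 0.46). D11 replicate 3 was the lowest library of both. Summed granulosa markers were 414 to 871 RPM at D11 and 49.7 to 59.2 RPM at D5, with 12 and 9 of 16 at 1 RPM or more and Fshr at 0 in both. Stroma and theca markers summed to 198 to 1888 RPM at D11 and 9.73 to 24.4 RPM at D5, and blood and immune markers to 34.5 to 512 RPM at D11 and 10.8 to 13.2 RPM at D5. Their part in these changes was not tested.

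At D20 against D11, Slc6a7, Slc6a4, Slc6a9, Slc38a8 and Slc7a2 were higher, and Slc6a8, Slc38a2, Slc38a1, Slc1a4 and Slc38a4 lower. Of 44 members 10 were higher and 27 lower, beside 22.5% and 55.1% of all genes, with a median log2 change of -0.73 for members and -0.66 for all genes. After rescaling 14 members were higher and 22 lower, while of all genes 5527 were higher and 6475 lower with rescaling and 3621 and 8844 without it. Slc6a7 had 352, 435 and 374 RPM at D20, against 8.84, 13.3 and 45.8 RPM at D11 (log2 change 4.37, SE 0.38). Slc6a4 had 34.2, 37.9 and 30.9 RPM at D20, against 1.82, 2.99 and 5.45 RPM at D11 (3.08, SE 0.32). Slc6a9 had 566, 479 and 549 RPM at D20, against 47.3, 55.8 and 173 RPM at D11 (2.77, SE 0.35). At D13 Slc6a7 already averaged 364 ± 63 RPM and Slc6a9 361 ± 26 RPM (SD, n = 3 each). Slc38a8 rose by 2.48 (SE 0.40) and Slc7a2 by 2.32 (SE 0.30).

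Slc6a8 had 0.272, 0.598 and 0.117 RPM at D20, against 25.9, 58.4 and 9.74 RPM at D11 (log2 change -4.29, SE 0.39). Slc38a2 had 6.65, 4.404 and 6.27 RPM at D20, against 112, 162 and 72.98 RPM at D11 (-4.05, SE 0.26). Slc38a1 had 2.105, 1.36 and 2.11 RPM at D20, against 24.8, 50.02 and 44.6 RPM at D11 (-3.79, SE 0.31). The groups were apart in all 3 genes, and at D13 Slc38a2 averaged 8.19 ± 2.5 RPM and Slc38a1 11.7 ± 3.9 RPM. Slc1a4 changed by -3.32 (SE 0.31) and Slc38a4 by -3.21 (SE 0.46). Summed granulosa markers were 80.4 to 87.00 RPM at D20 and 414 to 871 RPM at D11, with 4 and 12 of 16 at 1 RPM or more. Stroma and theca markers summed to 2.56 to 4.41 RPM at D20, with Lum and Cyp17a1 at 0, and to 198 to 1888 RPM at D11. Their part in these changes was not tested.

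D20 oocytes were compared with P6 large oocytes of the ovary. Of 46 members 4 were higher and 1 lower at D20, beside 9.62% and 4.59% of all genes. None of the 5 reached the 10 RPM set for naming, and they were named after their values were seen: Slc38a2, the dopamine carrier Slc6a3, the betaine carrier Slc6a12 and Slc6a15 were higher, and Slc7a9 was lower. Slc38a2 had 6.65, 4.404 and 6.27 RPM at D20, against 3.300, 0.978 and 0.609 RPM in P6 large oocytes (log2 difference 1.49, SE 0.26, adjusted p = 6.5e-05 by limma). It was the one member of these called by edgeR and by DESeq2. The log2 differences of the others were 0.93 for Slc6a3, 0.79 for Slc6a12, 0.55 for Slc6a15, whose groups overlapped, and -0.94 for Slc7a9. Without P6 large replicate 2 the count was 3. Slc6a9 averaged 532 ± 46 RPM at D20 and 497 ± 24 RPM in P6 large oocytes, and Slc6a7 387 ± 43 RPM at D20 and 416 ± 4.0 RPM in P6 large oocytes (SD, n = 3 each). Slc7a11 was not called, at 60.4 ± 17 RPM at D20 and 113 ± 13 RPM in P6 large oocytes (-0.92, SE 0.34, adjusted p = 0.067 by limma).

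**Figure D4:**
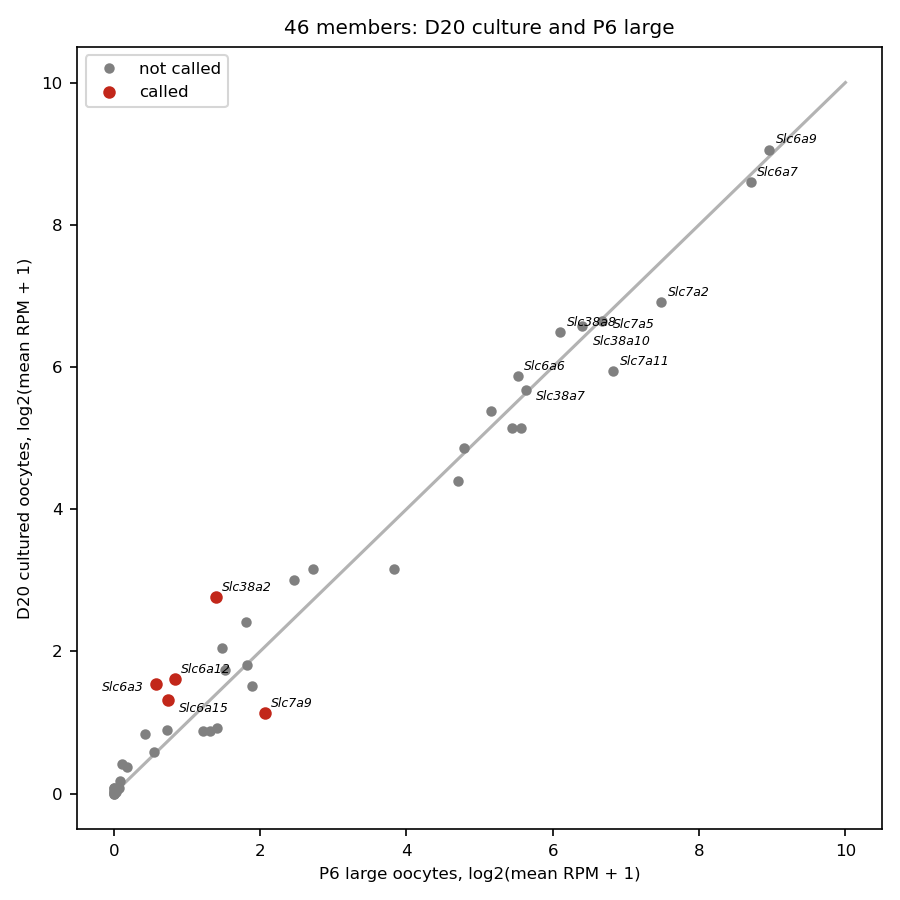
Group means of the 46 members as log2(mean RPM + 1), D20 cultured oocytes on the vertical and P6 large oocytes on the horizontal axis, with the line of equality and the 5 called members in red. Slc6a9 and Slc6a7 lie at the upper end near the line.

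At D21, WT oocytes under hypoxia were compared with WT oocytes under normoxia. Slc38a1, Slc36a4, Slc36a1, Slc38a6, Slc7a11, Slc38a10 and Slc7a2 were called higher under hypoxia by limma. Slc7a8 was called lower, and so were Slc7a4 and Slc7a7, which stayed below 10 RPM in every group mean. The calls were 7 higher and 3 lower of 34 members, beside 15.9% and 6.55% of all genes. After rescaling 4 members were higher and 6 lower, while of all genes 1606 were higher and 1445 lower with rescaling and 2295 and 942 without it. Slc38a1 had 140.4 and 125 RPM under hypoxia, against 39.8 and 23.04 RPM under normoxia (log2 difference 2.09, SE 0.24, adjusted p = 0.0032 by limma). Slc36a4 had 15.5 and 14.3 RPM under hypoxia, against 4.901 and 2.500 RPM under normoxia (1.81, SE 0.29, adjusted p = 0.0081 by limma). Slc36a1 had 89.9 and 82.3 RPM under hypoxia, against 38.1 and 21.1 RPM under normoxia (1.56, SE 0.23, adjusted p = 0.0064 by limma). WT normoxia replicate 2 was the lowest library of all 3 genes.

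Slc7a11 differed by 0.85 (SE 0.26, adjusted p = 0.042) and Slc38a10 by 0.81 (SE 0.26, adjusted p = 0.046) by limma, and both calls were lost after rescaling, without the filter on low values and without WT normoxia replicate 2. Slc7a8 had 3.34 and 3.23 RPM under hypoxia, against 15.2 and 6.79 RPM under normoxia (-1.39, SE 0.33, adjusted p = 0.019 by limma). The number of members called was 17 without WT normoxia replicate 1 and 8 without WT normoxia replicate 2, and it was 0 without WT hypoxia replicate 1 and 1, Slc38a1, without WT hypoxia replicate 2. With edgeR 17 and with DESeq2 18 members were called. No share of all genes is given for edgeR, DESeq2 or the fits without 1 library. Their counts are therefore not read as a result about the members. Summed granulosa markers were 36.1 to 47.4 RPM under WT hypoxia and 167 to 397 RPM under WT normoxia, with 10 and 12 of 16 at 1 RPM or more and none at 0. Their part in the result was not tested.

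In Tg oocytes Slc38a1 had 139.9 and 149 RPM under hypoxia, against 73.4 and 59.5 RPM under normoxia (log2 difference 1.12, SE 0.24, adjusted p = 0.065 by limma). The libraries were apart, but no member was called by limma, beside 0.153% and 0.869% of all genes, and 8 members had an unadjusted p under 0.05. Rescaling called 2 members, edgeR 3 and DESeq2 6, each with Slc38a1 among them. No share of all genes is given for these settings or for the unadjusted p-values. Those counts are therefore not read as a result about the members. Granulosa markers summed to 31.9 to 53.2 RPM under Tg hypoxia and 195 to 289 RPM under Tg normoxia, and their part was not tested. The difference between the hypoxia effects of Tg and WT was called for no member by limma, edgeR or DESeq2, beside 0% and 0% of all genes. The 3 members with an unadjusted p under 0.05, named after their values were seen, were Slc36a1 (-1.09, SE 0.32), Slc36a4 (-1.11, SE 0.41) and Slc38a1 (-0.98, SE 0.35). Without WT normoxia replicate 1 some members were called, and no share of all genes is given for that fit.

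Tg oocytes were also compared with WT oocytes under the same oxygen label. Under hypoxia Slc38a1 had 139.9 and 149 RPM in Tg and 140.4 and 125 RPM in WT oocytes. No member was called by limma, edgeR or DESeq2, beside 0.00695% and 0% of all genes, and none had an unadjusted p under 0.05. Under normoxia Slc38a1 had 73.4 and 59.5 RPM in Tg and 39.8 and 23.04 RPM in WT oocytes (1.10, SE 0.24, adjusted p = 0.11 by limma). No member was called by limma or edgeR, beside 0.00695% and 0% of all genes by limma. Of the members, 10 had an unadjusted p under 0.05 and DESeq2 called 4. No share of all genes is given for the unadjusted p-values or for DESeq2, so these counts are not read as a result about the members.

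In the groups with no oxygen label Slc38a2 had 96.8 and 78.9 RPM in Tg oocytes, against 34.5 and 35.3 RPM in WT oocytes (log2 difference 1.30, SE 0.26, adjusted p = 0.034 by limma). Slc38a1 had 89.4 and 64.9 RPM in Tg oocytes, against 34.7 and 37.5 RPM in WT oocytes (1.06, SE 0.24, adjusted p = 0.039 by limma). Slc1a4, named after its values were seen, had 7.12 and 6.42 RPM in Tg oocytes, against 1.65 and 1.25 RPM in WT oocytes (1.67, SE 0.36, adjusted p = 0.036 by limma). These were the 3 members called higher of 34, with none lower, beside 6.25% and 0.605% of all genes. The calls of Slc38a1 and Slc1a4 were lost without the filter on low values. With edgeR none was called and with DESeq2 6, and the count also changed whenever 1 of the 4 libraries was left out. No share of all genes is given for these alternatives, so their counts are not read as a result about the members. Granulosa markers summed to 651 to 957 RPM in Tg and 319.7 to 364 RPM in WT oocytes, with 12 of 16 in Tg and 12 of 16 in WT at 1 RPM or more and Krt19 at 0 in WT oocytes, and their part was not tested.

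**Figure D5:**
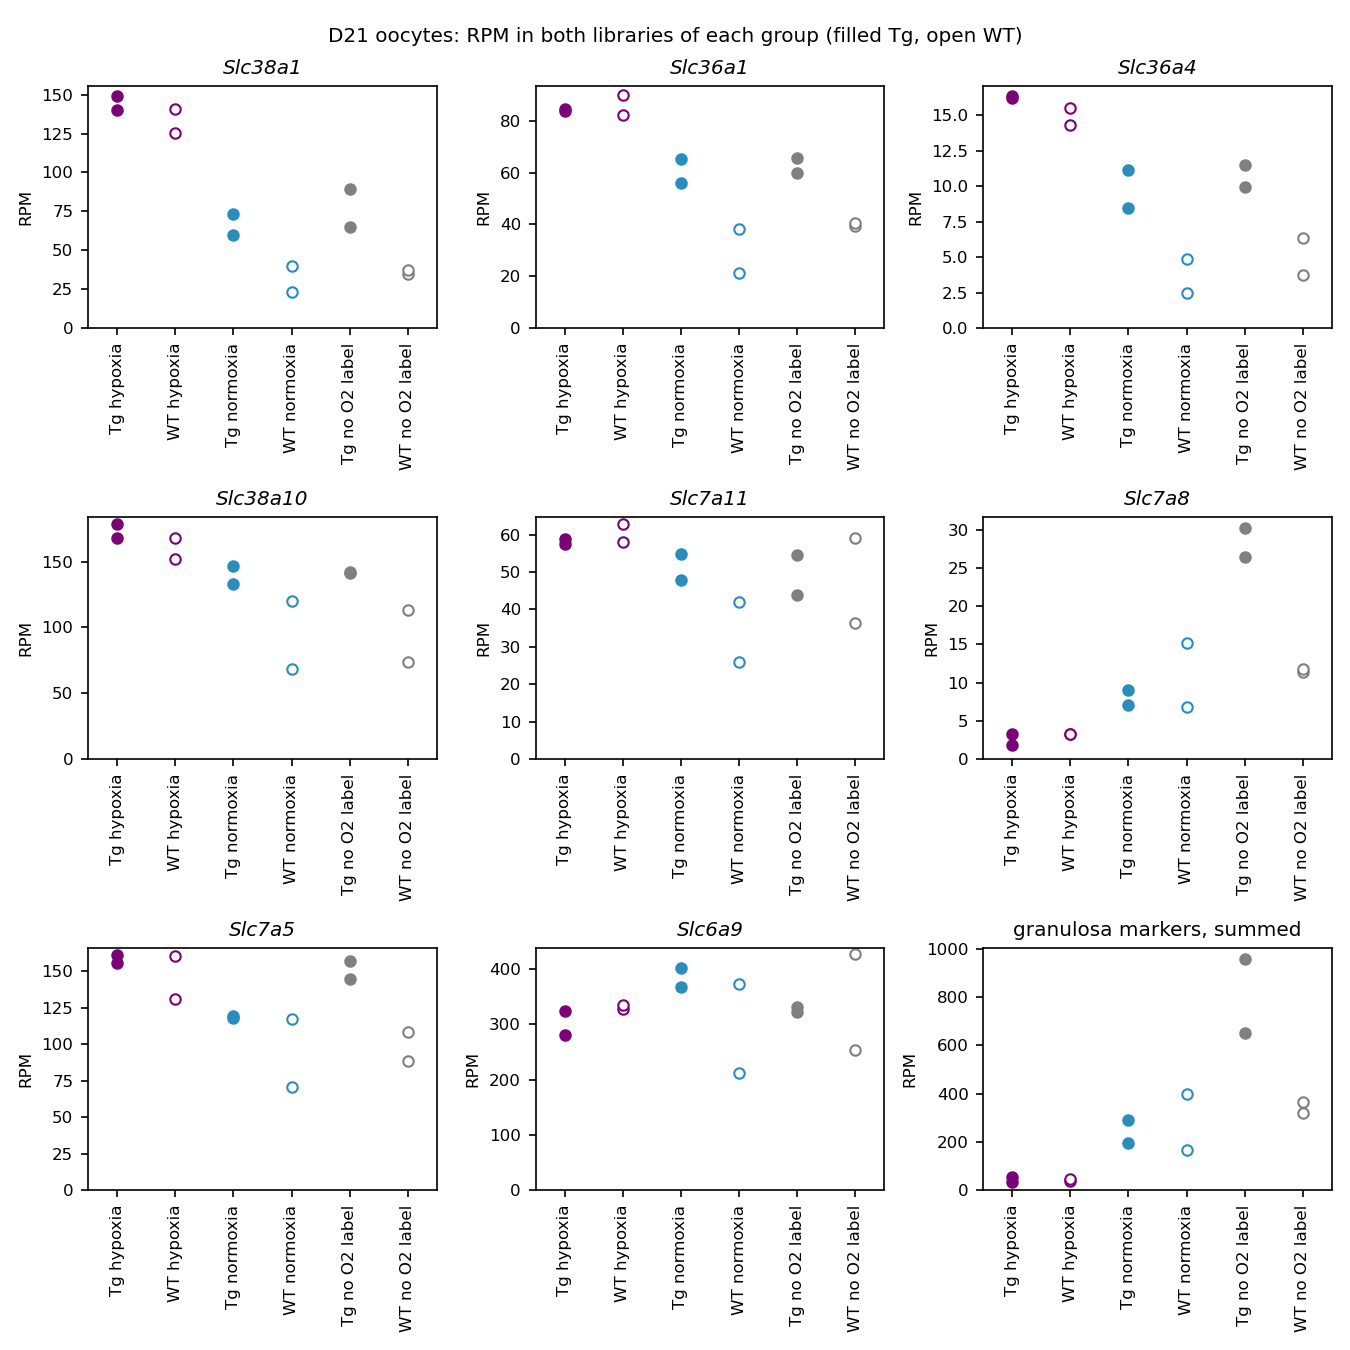
RPM in both libraries of each D21 group for 8 members and for the sum of 16 granulosa markers, with Tg left of WT for hypoxia, normoxia and no oxygen label. Slc38a1 is higher in all 4 hypoxia libraries than in any normoxia library, and the granulosa sum is lower.

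Other genes of amino acid handling were counted beside the members. Of 25 genes of amino acid sensing by mTORC1, 17 were higher and 4 lower in P6 small than in P6 large oocytes, beside 51.3% and 22.1% of all genes, and 17 higher and 5 lower at P4, beside 48.7% and 20.5%. Their median log2 difference was 1.02 at P6 and 0.68 at P4, against 0.41 and 0.34 for all genes. At E18.5 against E14.5, 13 of these genes were higher and 10 lower, beside 40.0% and 30.0% of all genes. At D20 against D11, 5 were higher and 16 lower, beside 22.5% and 55.1%. Of 15 amino acid carriers outside the 6 families, 4 were higher and 6 lower in P6 small oocytes, read against the same P6 shares of all genes, with a median log2 difference of -0.23. Of 3 heavy chains and accessory proteins 2 were higher and 1, Slc3a2, lower. Under WT hypoxia 7 of 25 sensing genes were higher and 4 lower, and 2 of 17 other carriers were higher and none lower, beside 15.9% and 6.55% of all genes.

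Over the 24 group means, the genes ranked most like 3 abundant members were looked up among 12465 genes, as a description over groups that share strain and culture. For Slc38a1 they were Prdm15, Gga1 and Nubp1, with a Spearman rho of 0.963, 0.962 and 0.948. For Slc7a5 they were Srf, Myo6 and Amot, each with a rho of 0.922, and for Slc6a9 Ddx19a, Slc12a9 and Tyw1, with 0.986, 0.986 and 0.985. Among the members Slc6a9 and Slc6a7 had a rho of 0.950, Slc6a9 and Slc38a8 of 0.876, and Slc38a1 and Slc7a5 of 0.796.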

How the data were processed

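The deposited table gave RPM per gene and library, which are reads scaled by the authors to a sum of 1000000 per library, without correction for gene length. Poly(A) libraries were made with a directional kit and 12 PCR cycles, per the labels' protocols. The submitters' processing notes name TopHat2, Bowtie2 2.0.13, featureCounts 1.5.1, R 3.4.4 and mm10, without roles. Per-kb levels used exon lengths of GENCODE M21.

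Values were whole multiples of 1 read, within 0.01, in 99.9999% of cases, so reads were recovered for edgeR and DESeq2 as alternatives. The main test was limma-trend on log2(RPM + 1), with 1 mean per group and genes at a mean of at least 1 RPM in at least 1 group of the fit, in separate fits of the 27 ovarian, 27 culture and 12 D21 libraries, and a joint fit of 54 libraries for D20 against P6 large. Fold changes on this scale understate those of low genes. P-values were Benjamini-Hochberg adjusted over all genes of a fit, with a threshold of 0.05. Versions were R 4.3.3, limma 3.58.1, edgeR 4.0.16, DESeq2 1.42.0 and Python 3.11.15. The scripts were tested on simulated data.

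By rule, members named with test values were called, had groups that did not overlap and a higher mean of at least 10 RPM. Up to 5 per direction were taken by log2 change. The interactions had no condition on overlap. Slc38a1 in Tg hypoxia against Tg normoxia and in Tg against WT under hypoxia and normoxia was named outside this rule. So was Slc7a11 in D20 against P6 large, and other such cases are marked. Members, gene lists and tests were chosen with earlier results of these data known. Alternatives were a pseudocount of 0.5, no filter, a filter at 5 RPM, median-of-ratios rescaling, edgeR, DESeq2, a replicate block and leaving out each library. Libraries of 4.84 to 23.2 M (1000000) reads set a level of 0.129 to 0.619 RPM for 3 reads, which covers counting error only.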

Additional observations from a re-analysis of the deposited data

Results flagged for a closer look

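For 3 members the difference between small and large oocytes, tested as an interaction, was called larger at P6 than at P4 by limma. The difference of log2 differences was 0.82 for Slc36a4, 0.63 for Slc38a10 and 0.56 for Slc36a1. Of all genes, 5.88% were called higher and 2.64% lower in the same test, so the count is not read as a result about the members. Over 19 alternatives the count ran from 0 to 3. The call was lost under 11 of them for Slc36a4, 9 for Slc38a10 and 10 for Slc36a1. No cause was tested.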

How the results depend on the processing

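Of 77 named log2 changes, 55 kept their direction and side of the threshold under every alternative, 17 lost a call under at least 1 alternative, 5 gained one, and none reversed. The interaction between P6 and P4 called 3 members, and 1 with edgeR. D20 against P6 large called 5, and 2 with the filter at 5 RPM, 1 with edgeR and 1 with DESeq2. WT hypoxia called 10, and 17 with edgeR and 18 with DESeq2. Tg hypoxia called 0, and 2 after rescaling, 3 with edgeR and 6 with DESeq2. Tg against WT under normoxia called 0, and 4 with DESeq2. Tg against WT without an oxygen label called 3, and 0 with edgeR and 6 with DESeq2. The causes were not tested. No share of all genes stands beside these counts, so they are not read as a result about the members. Leaving out 1 library gave 0 to 3 members for the interaction, 3 to 5 for D20 against P6 large, 0 to 17 for WT hypoxia, 0 to 14 for Tg against WT under normoxia, 0 to 9 without an oxygen label and 0 to 5 for the difference of hypoxia effects. With 2 libraries a group, a lone library was assumed to vary like the other groups. The ranges without 1 library also lack a share of all genes and are read only as a measure of dependence on single libraries.

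Correlations of the deviations of same-numbered libraries ran between -0.18 and 0.16. Of the 7 comparisons with 3 pairs, 0 had all pairs over 0.1. In D20 against P6 large every D20 library correlated best with its own number, a hint from the data and not from the design. With 2 libraries a group both pairs have the same correlation by construction, and it was over 0.1 in 1 of 5 comparisons, Tg against WT under normoxia. A replicate block gave 0 members for Tg against WT without an oxygen label in place of 3, and otherwise counts within 1.5 times. It also lost the calls of Slc7a11 and Slc38a10 under WT hypoxia and of Slc6a15 in D20 against P6 large.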

Other observations

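Slc38a1 and Slc38a2 stood at different levels on neighbouring culture days. The D21 libraries without an oxygen label had 4.84 to 8.72 M reads, against 14.7 to 18.4 M at D20. The D21 libraries with an oxygen label had 15.9 to 21.3 M. Slc38a1 averaged 31.4 to 145 RPM in the 6 groups at D21, which include Tg oocytes and hypoxia, and 1.86 RPM at D20. It averaged 31.4 RPM in WT normoxia and 36.1 RPM in unlabelled WT oocytes. Summed granulosa markers were 167 to 397 RPM in WT normoxia, 319.7 to 364 RPM in unlabelled WT and 80.4 to 87.0 RPM at D20. Slc38a2 averaged 33.00 to 87.8 RPM at D21 and 5.78 RPM at D20. These values were not tested against each other.

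Slc38a1, Slc38a2 and Slc38a4 neighbour each other on chromosome 15. At P3 they averaged 146, 43.7 and 0.0923 RPM, and at D5 43.4, 39.5 and 67.7 RPM, in the same order.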
